A study of Danio rerio with 8 samples.

Results

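Semaphorins, ephrins, slits and their receptors are families of cell-surface and secreted proteins that steer growing axons, migrating neural crest cells and sprouting vessels. They were selected by gene name in RNA-seq counts of GFP-positive cells from zebrafish larvae. Rows whose name begins with sema, plxn, epha or ephb and a digit, efna, efnb, robo or slit and a digit, or unc5 numbered 85. Without efnb2a, unc5b, sema3ga and ephb4a, which belong to the arterial and venous genes, 81 of the 32520 genes of the table were left. They were 29 semaphorins, 12 plexins, 12 ephrins, 14 Eph receptors, 4 slits, 5 robo rows, 4 unc5 genes and unc50. The name of unc50 matches the prefix, but it encodes a Golgi membrane protein and no guidance receptor, so it is kept in the counts and described apart.

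The libraries came from Tg(fli1:EGFP)y1 larvae of wild-type genotype, raised to 96 hours post fertilization (hpf), that had been injected at the one-cell stage. The 4 control libraries came from larvae given a standard control morpholino, an antisense oligomer, and the 4 libraries labelled Hpa2 loss-of-function (LOF-labelled) from larvae given a morpholino against the exon-intron junction 10 of hpse2, in equimolar amounts. Each sample pooled 60 to 80 larvae and its GFP-positive cells were sorted, and each group holds 2 biological replicates of 2 libraries, numbered 1_1, 1_2, 2_1 and 2_2. Since the regulatory sequence of fli1a drives GFP in vessels and also in derivatives of the cranial neural crest, the sort does not isolate endothelium alone, although the samples are labelled as endothelium.

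Of 25 endothelial markers, 22 were above 1 CPM (counts scaled to a common library total, on library sizes scaled by trimmed means) in all 8 libraries, and the summed level of the list ranged from 972 to 1375 CPM. The most abundant of them was fli1a, at a mean of 479 CPM. Its regulatory sequence drives the sorted GFP, also outside vessels, so the sum does not measure endothelium alone. Cartilage and neural crest markers summed to between 18511 and 33217 CPM, far above the endothelial markers. The 10 fibroblast markers summed to between 34005 and 47612 CPM, above the cartilage and neural crest sum in every library. Library totals ran from 5048839 to 11344918 counts, of which the 81 genes held 20064 to 59947, or 0.397% to 0.549%. The first principal component over all tested genes held 40.3% of the variance and placed control 1_1 and 1_2 beside LOF-labelled 2_1 and 2_2, here the first library set, and the other 4 libraries in a second set. The morpholino's target, hpse2, was at 20.6 to 33.1 CPM among controls against 47.4 to 83.3 CPM among LOF-labelled libraries. A splice morpholino need not lower a gene's count, so the loss of Hpa2 cannot be read from this gene's counts. No label states separate pools for both libraries within 1 biological replicate, so p-values may in part measure technical spread and can be too small. In a fit with biological replicate as a random effect, libraries of the same replicate correlated at 0.504. The 4 libraries of a group are therefore not independent samples.

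As background, semaphorins act mainly through plexins, with neuropilins as co-receptors for most of the secreted class 3 members. Ephrins are membrane-bound ligands of the Eph receptor tyrosine kinases and can also signal back into the cell that carries them. Slits are secreted ligands of the robo receptors, and heparan sulfate is known to take part in slit-robo binding. The unc5 genes encode netrin receptors. In vessels, plexin D1, robo4 and the pair of ephrin-B2 and EphB4 are the best known members.

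Most of these genes were expressed in the sorted cells. Of the 81, 73 had enough counts for the test across all genes (filterByExpr of edgeR), among them all 12 plexins, 4 slits, 5 robo rows and 4 unc5 genes, 26 of 29 semaphorins, 11 of 14 Eph receptors and 10 of 12 ephrins. The 8 others were ephb6, epha2a, ephb2a, efna3a, sema4ga, sema4gb, sema3fb and efnb1. The first 7 held at most 17 counts in any library. Ephrin B1 (efnb1) had 0 counts in every library, which allows up to 0.258 to 0.630 CPM per library (3 counts, counting error only).

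Semaphorins and plexins share an extracellular domain, through which they bind each other. Per the annotation in the authors' deposited table, a Sema domain is listed for 27 of 29 semaphorins and for 10 of 12 plexins. An ephrin-binding domain is listed for 12 of 14 Eph receptors. Leucine-rich repeats are listed for all 4 slits, immunoglobulin domains for all 5 robo rows and death domains for all 4 unc5 genes. Thrombospondin repeats are listed for 3 semaphorins and for 3 of the 4 unc5 genes.

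**Figure D1:**
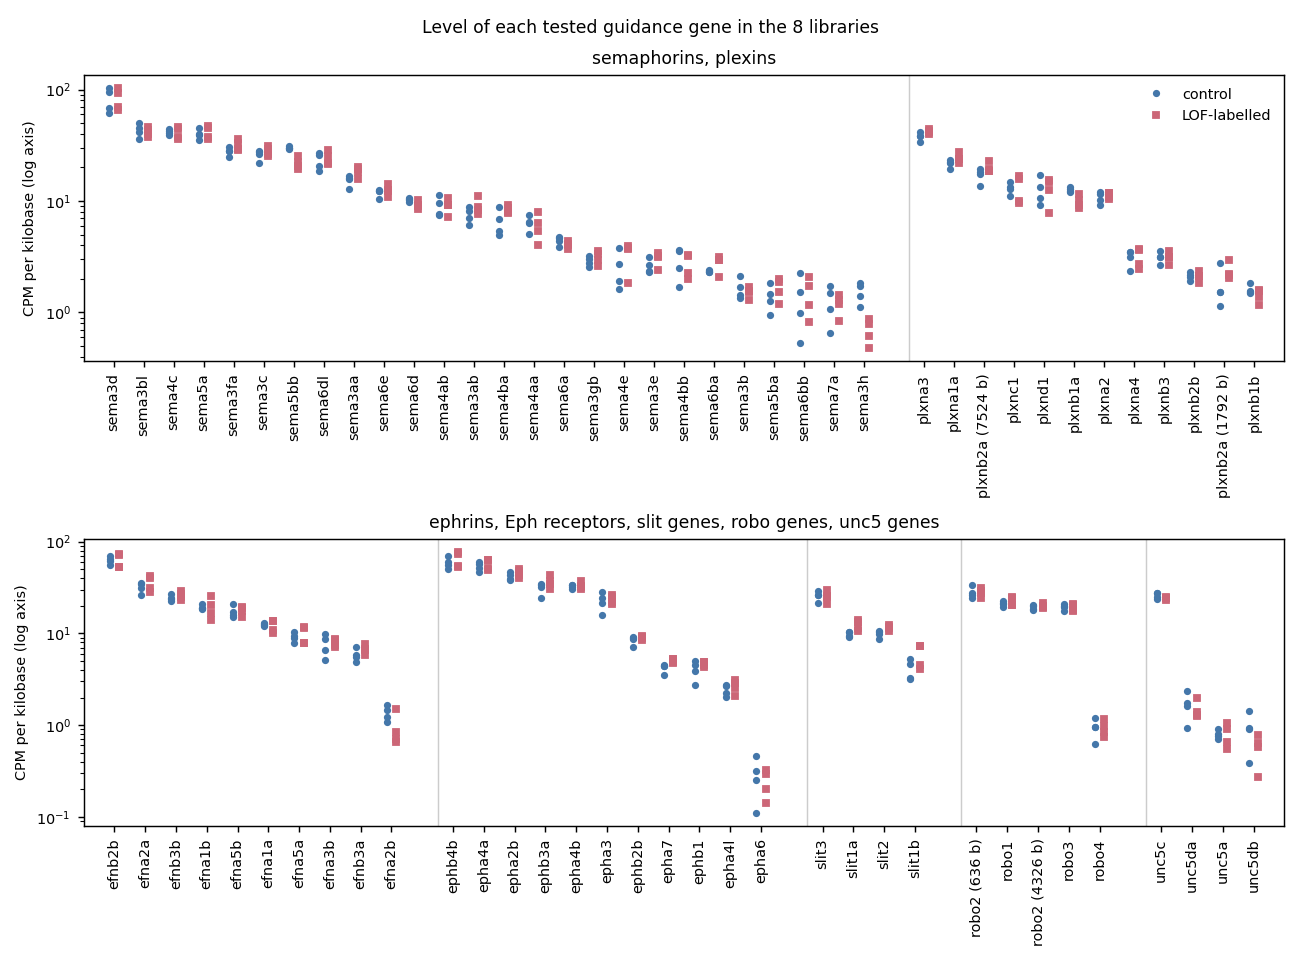
CPM per kilobase of counted gene length (log axis) for each tested member except unc50, by family and in falling order, with 4 control libraries as circles and 4 LOF-labelled libraries as squares. Within families the means span from 82.3 (sema3d) to 1.11 (sema3h) among semaphorins, and for most genes circles and squares cover the same range.

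Among the ligands, the secreted semaphorin sema3d, which guides axons and neural crest cells in zebrafish, had the highest mean level of all members, 82.3 CPM per kilobase. Its values were 191, 173, 266 and 288 CPM among controls (in the order 1_1, 1_2, 2_1, 2_2, as for every gene here) against 293, 261, 196 and 183 CPM among LOF-labelled libraries. Its groups overlapped widely, and the low libraries were those of the first set in both groups. It lies on chromosome 18 (9171778 to 9238675, forward strand, GRCz11) next to sema3ab and sema3e, with gaps of 84536 and 53798 bases between neighbours. The mean levels fell along this row of genes, from 82.3 to 8.27 and 2.83 CPM per kilobase.

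The next semaphorins by level were sema3bl, sema4c and sema5a, at 42.5, 41.5 and 40.5 CPM per kilobase. The secreted sema3bl was at 162, 117, 136 and 147 CPM among controls against 122, 129, 150 and 142 CPM among LOF-labelled libraries. The transmembrane sema4c, whose mouse counterpart binds plexin B2, was at 154, 162, 169 and 173 CPM among controls against 175, 182, 149 and 143 CPM among LOF-labelled libraries. The groups overlapped for both genes. The transmembrane sema5a has thrombospondin repeats, through which its rodent counterpart binds heparan sulfate and chondroitin sulfate proteoglycans. It was at 227, 202, 228 and 259 CPM among controls against 260, 271, 216 and 209 CPM among LOF-labelled libraries, again with overlap.

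Among the plexins, plxna3 was highest at 40.1 CPM per kilobase, followed by plxna1a at 23.1 and plxnb2a at 18.6. Plexins of class A pair with neuropilins, and B2 plexins are receptors of class 4 semaphorins. The level of plxna3 was 254, 221, 253 and 276 CPM among controls against 277, 281, 294 and 264 CPM among LOF-labelled libraries. For plxna1a the values were 138, 119, 134 and 144 CPM among controls against 136, 146, 170 and 146 CPM among LOF-labelled libraries. Control 1_2 was the lowest library for both genes, and the groups overlapped. The main plxnb2a row was at 133, 102, 147 and 137 CPM among controls against 141, 173, 147 and 139 CPM among LOF-labelled libraries, also with overlap. A second, shorter row carries the same name (1792 against 7524 bases), overlaps the first on the same strand and averaged 3.66 CPM, so the split of reads between them is uncertain.

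The vascular plexin, plxnd1, was near 15.1 CPM in both groups (15.1 ± 4.11 and 15.03 ± 4.13, mean ± SD, n = 4). Its row in the table is a short model of 1194 bases on chromosome 8 (54284961 to 54286201), so its value need not reflect the whole gene. It was one of the 4 members, at a mean of at least 5 CPM, with the widest spread over the libraries, from 9.23 CPM in LOF-labelled 1_1 to 20.4 CPM in control 1_2.

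Among the ephrins, efnb2b led at 62.7 CPM per kilobase, with efna2a at 33.6 and efnb3b at 25.2. The transmembrane efnb2b is a duplicate of the arterial ephrin gene efnb2a. It was at 133, 113, 124 and 142 CPM among controls against 148, 148, 109 and 107 CPM among LOF-labelled libraries, so the 2 highest and the 2 lowest libraries were both LOF-labelled. The membrane-anchored efna2a was at 82.3, 69.8, 93.2 and 91.8 CPM among controls against 112, 106, 74.1 and 83.4 CPM among LOF-labelled libraries. For efnb3b the values were 47.5, 43.7, 52.9 and 46.7 CPM among controls against 56.9, 53.2, 49.0 and 45.6 CPM among LOF-labelled libraries. In all 3 genes the groups overlapped.

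Among the Eph receptors, ephb4b, epha4a and epha2b led at 61.6, 55.3 and 43.5 CPM per kilobase. EphB4 receptors bind ephrin-B2, EphA4 binds ephrins of both classes and EphA2 binds ephrin-A1. The level of ephb4b was 212, 193, 229 and 265 CPM among controls against 278, 293, 207 and 202 CPM among LOF-labelled libraries. For epha4a the values were 258, 231, 281 and 297 CPM among controls against 315, 313, 253 and 243 CPM among LOF-labelled libraries. Both genes were lowest in the first library set, whichever the group. The level of epha2b was 115, 113, 128 and 136 CPM among controls against 126, 147, 139 and 119 CPM among LOF-labelled libraries, with overlap. The least abundant tested Eph receptor was epha6, at 0.264 CPM per kilobase.

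Among the slits, slit3 was highest at 25.6 CPM per kilobase, with 171, 139, 169 and 188 CPM among controls against 161, 190, 134 and 165 CPM among LOF-labelled libraries. The other slits, slit1a, slit2 and slit1b, were at 11.1, 10.7 and 4.92 CPM per kilobase. The spans of slit2 and slit3 in the table each contain a gene of microRNA 218a, which had 2 counts in all, in a library of polyadenylated RNA.

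Among the receptors of slits, the highest value per kilobase, 28.0, belonged to a robo2 row of 636 bases, at 15.3 to 21.7 CPM among controls against 15.6 to 20.1 CPM among LOF-labelled libraries. A second robo2 row of 4326 bases lies downstream on the same strand of chromosome 15 and was at 19.6 CPM per kilobase, close to robo1 at 21.9 and robo3 at 19.4. Whether the 2 rows are parts of 1 gene is not given in the table. The level of robo1 was 162, 148, 164 and 175 CPM among controls against 187, 192, 158 and 158 CPM among LOF-labelled libraries. The endothelial robo4 was much lower per kilobase, at 0.933 CPM per kilobase over a counted length of 12079 bases. Without that scaling its mean was 11.3 CPM, against 17.8 CPM for the robo2 row of 636 bases. The level of robo4 lay between 7.56 and 14.5 CPM among controls against between 8.88 and 14.0 CPM among LOF-labelled libraries. It neighbours robo3 on chromosome 10 across a gap of 14182 bases.

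The netrin receptor unc5c stood well above the other 3 tested unc5 genes, at 25.1 CPM per kilobase against 1.57 for unc5da, 0.791 for unc5a and 0.743 for unc5db. It was at 61.3, 52.7, 56.0 and 62.2 CPM among controls against 55.4, 55.0, 54.5 and 52.2 CPM among LOF-labelled libraries. Its span overlaps bmpr1bb on the other strand, which held 1821 counts against 3700, and the use of strand is not given in the sources used here, so the share of its reads is uncertain. For unc5da the values were between 2.73 and 6.89 CPM among controls against between 3.64 and 5.69 CPM among LOF-labelled libraries. The unrelated unc50 was at 30.9 ± 1.11 CPM among controls against 29.6 ± 6.77 CPM among LOF-labelled libraries (mean ± SD, n = 4).

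Gene copies told apart by a final a or b in the name were unequal in level, and how each pair arose was not examined. For 14 pairs whose names differ only in a final a or b, both copies were tested. Per kilobase, the a copy was the higher one in all 8 libraries in 9 pairs and the b copy in 5. The most uneven pairs were efna2a, which held 95.5% to 98.5% of its pair, and sema5bb, whose partner sema5ba held 2.92% to 9.31%. The span of efna2b overlaps another gene on the same strand, which held 2017 counts against 130, so the share of efna2a is uncertain. The a copy held 86.2% to 92.6% of the plexin B2 pair and 60.3% to 66.0% of the EphA4 pair. For slit1a the share was 61.5% to 76.7%, and for sema4aa 35.9% to 49.8%. By raw counts, efna5a rather than efna5b was the higher copy, since their counted lengths are 4947 and 907 bases, and for the sema4b and unc5d pairs the higher copy varied between libraries. Reads of near-identical copies may have been assigned in part to the wrong one.

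**Figure D2:**
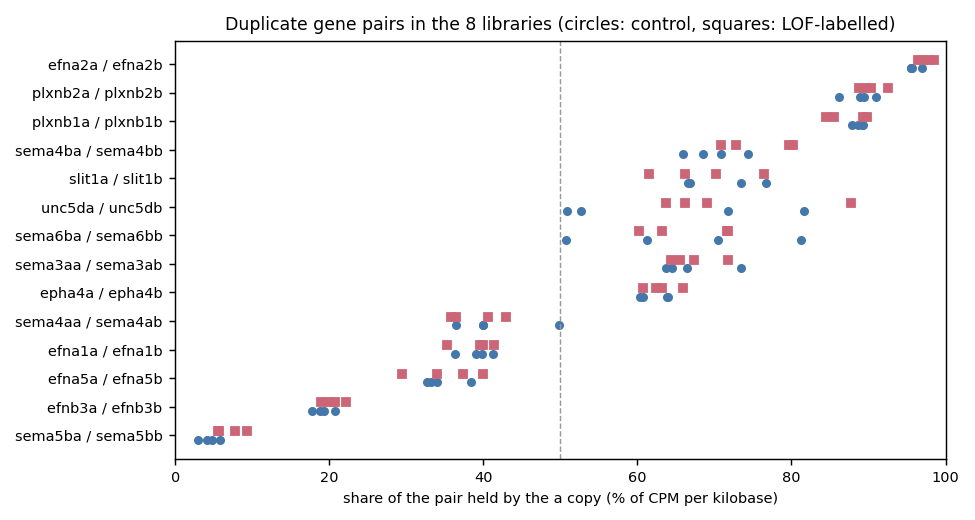
Share of the summed CPM per kilobase held by the a copy (horizontal axis, in percent) in each of 14 duplicate pairs, with control libraries as circles, LOF-labelled libraries as squares and a dashed line at 50. No pair crosses the line in any of the 8 libraries, and the pair of sema5ba and sema5bb lies lowest at 2.92% to 9.31%.

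The comparison of the morpholino groups asks how loss of Hpa2, a protein that binds heparan sulfate, affects gene expression in the sorted cells. The slits slit1a and slit2, secreted ligands of robo receptors, had higher values in the LOF-labelled libraries, with slit1a at 59.3 ± 4.18 CPM among controls against 74.8 ± 9.39 CPM among LOF-labelled libraries (mean ± SD, n = 4). The semaphorins sema5bb and sema3h and the plexin plxnb1a had lower values. No member passed the edgeR quasi-likelihood test over all genes with Benjamini-Hochberg adjustment (0 of 73 at an adjusted p under 0.05), where 0.09% of the 15559 genes tested passed. At an unadjusted p under 0.05 there were 6 members, or 8.22%, with 3 lower and 3 higher, where 6.29% of all genes tested had such a p. DESeq2 called 1 member, sema5bb, and 0.617% of all genes tested. Of the members' log2 fold changes (LOF-labelled minus control), 70 of 73 were smaller than 0.5 in size, as were 92.4% of all genes, and 46 (63%) were above 0, beside 50.3% of all genes tested. The median was 0.059, beside 0.0017 over all genes tested. It was 0.011 without control 1_2, 0.019 without LOF-labelled 1_2, 0.097 without control 2_1 and 0.092 without LOF-labelled 2_2.

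**Figure D3:**
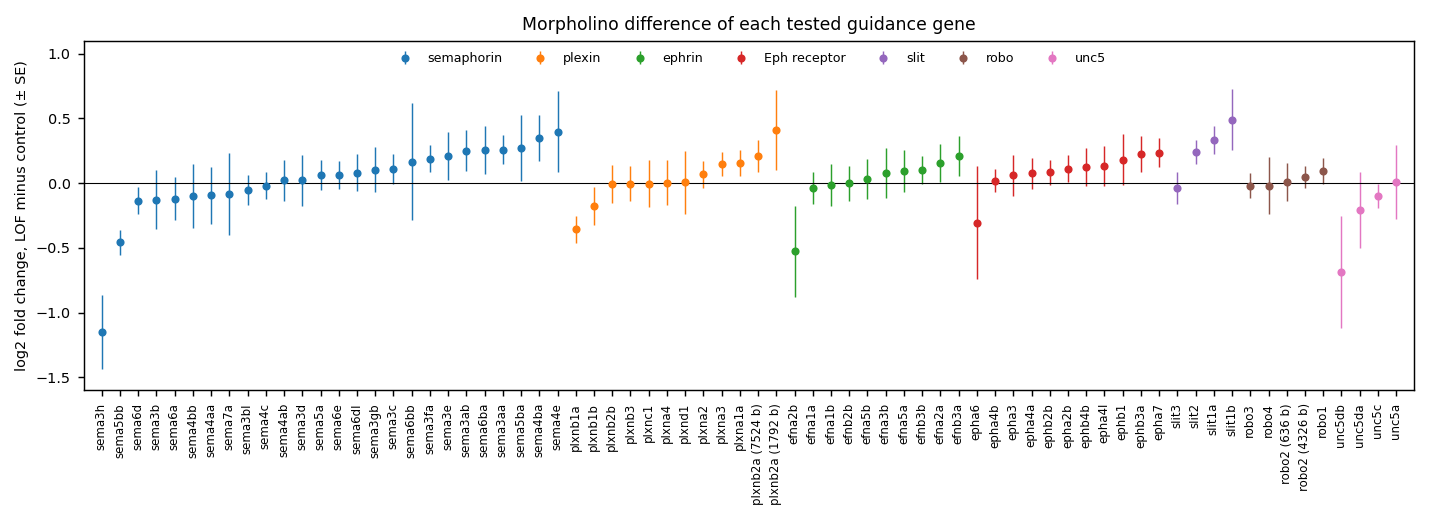
Log2 fold change of each tested member except unc50, LOF-labelled minus control, with its standard error (SE) as a bar, ordered within families. The values run from -1.15 for sema3h to 0.49 for slit1b, and most lie within 0.5 of 0.

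By family, no member of any was called. Of 26 semaphorins, 10 lay below 0 and 16 above (median 0.063), and 10 of 11 Eph receptors lay above 0 (median 0.11). Of all genes tested, 50.3% lay above 0. Control 1_2, the library with the fewest counts, was the lowest library in every tested Eph receptor but epha4b. In 8 of the 11 Eph receptors the difference had the same sign within both library sets. These were 4 of 7 of class A and 4 of 4 of class B. Of the 15559 genes tested, 8973 had the same sign in both sets. Plexins were spread about 0 with 5 below and 7 above (median 0.0051), as were the 10 ephrins with 4 below and 6 above (median 0.056). Of 5 robo rows 2 lay below 0 (median 0.0082). Slits had the highest median, 0.29, with 3 of 4 above 0, and unc5 genes the lowest, -0.15, with 3 of 4 below 0. The summed level of the slits was 347 ± 34.6 CPM among controls against 386 ± 33.2 CPM among LOF-labelled libraries (mean ± SD, n = 4), and the ranges, 299.8 to 382 and 361 to 434 CPM, overlapped.

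In 6 of the 73 members the 4 LOF-labelled libraries did not overlap with the 4 controls, 3 lower and 3 higher, which is 8.22% beside 4.65% of all genes tested. The lower ones were sema5bb, sema3h and plxnb1a, and the higher ones slit1a, slit2 and epha7. An exact permutation test of 4 against 4 libraries gives its smallest possible p, 0.0286, to any such gene. The test is therefore no further evidence for them. It treats each library as an independent sample, which libraries of the same biological replicate are not, so its p can be too small.

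**Figure D4:**
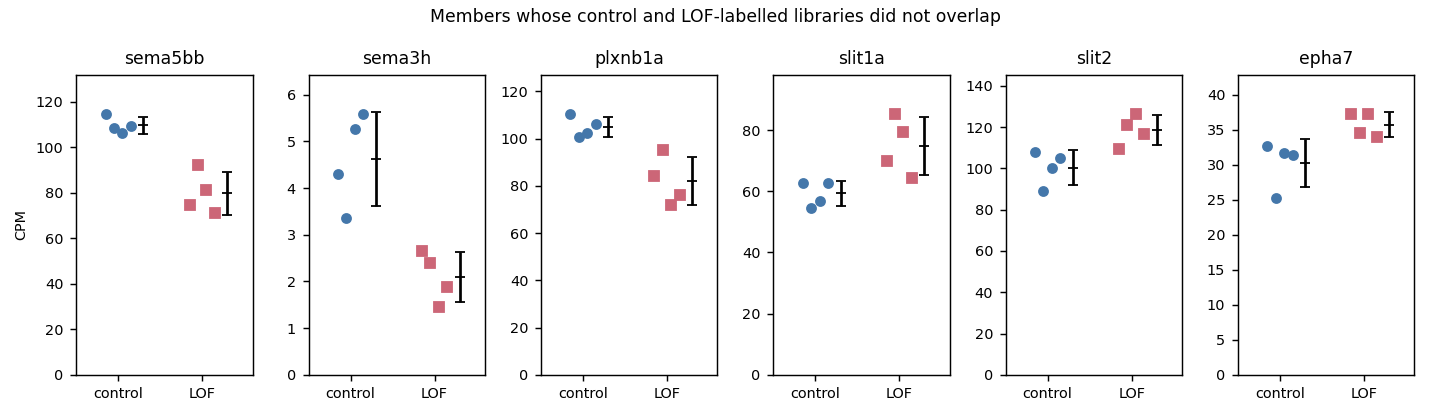
CPM of the 6 members whose groups did not overlap, with control libraries as circles, LOF-labelled libraries as squares, and the mean and SD of each group (n = 4) as a black mark and bar. The gap between the groups is widest, for its level, in sema3h, and narrowest in slit2.

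The member of smallest p was sema5bb, a transmembrane semaphorin with thrombospondin repeats (ENSDARG00000075648, chromosome 6, 4033832 to 4146073, forward strand). It was at 115, 108, 106 and 109 CPM among controls against 74.6, 92.3, 81.0 and 71.0 CPM among LOF-labelled libraries. The 4 controls lay close together and above every LOF-labelled library. The log2 fold change was -0.46 (SE 0.099, edgeR adjusted p = 0.198), and was -0.55 within the first library set against -0.37 within the second. Over the alternatives other than a crossed replicate block, described further on, the adjusted p ran from 0.0107 (DESeq2) to 0.99999 (counts summed per biological replicate). Its duplicate sema5ba, at 5.96 ± 1.63 CPM among controls against 7.11 ± 1.55 CPM among LOF-labelled libraries, and its neighbour unc50, 35633 bases away, overlapped between the groups.

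The secreted semaphorin sema3h (ENSDARG00000042616, chromosome 8, 25913787 to 25951806) had low counts, 36, 16, 42 and 65 in the controls and 21, 23, 11 and 14 in the LOF-labelled libraries. Its level was 4.63 ± 1.01 CPM among controls against 2.10 ± 0.533 CPM among LOF-labelled libraries (mean ± SD, n = 4). The log2 fold change was -1.15 (SE 0.29, edgeR adjusted p = 0.334), against -1.09 within the first set and -1.04 within the second. It was the largest in size among the members.

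The plexin plxnb1a, of the class that binds class 4 semaphorins (ENSDARG00000075821, chromosome 23, 9938236 to 10137322), was at 111, 101, 102 and 106 CPM in the controls. It was at 84.3, 95.3, 72.0 and 76.2 CPM in the LOF-labelled libraries, all below the lowest control. The log2 fold change was -0.36 (SE 0.103, edgeR adjusted p = 0.501), against -0.51 within the first set and -0.22 within the second. Its less abundant duplicate plxnb1b was at 17.5 ± 1.65 and 15.5 ± 2.15 CPM, with overlap.

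As a family, slits are known for repelling axons at the midline of the nervous system. The level of slit1a (ENSDARG00000044954, chromosome 13, 555321 to 638485) was 62.8, 54.6, 56.9 and 62.8 CPM among controls against 69.9, 85.4, 79.5 and 64.4 CPM among LOF-labelled libraries. The log2 fold change was 0.33 (SE 0.11, edgeR adjusted p = 0.572), with 0.29 and 0.37 in the library sets. The lowest LOF-labelled library lay just above the highest control. For slit2 (ENSDARG00000004246, chromosome 1, 23783349 to 23912788) the values were 108, 88.9, 100.1 and 105 CPM among controls against 109, 121, 127 and 117 CPM among LOF-labelled libraries, a log2 fold change of 0.24 (SE 0.093, edgeR adjusted p = 0.705). The within-set differences were 0.31 and 0.17.

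The receptor epha7, which binds ephrins of class A (ENSDARG00000004635, chromosome 20, 24817118 to 24963092), was at 32.6, 25.2, 31.7 and 31.4 CPM in the controls. It was at 37.3, 34.5, 37.2 and 33.9 CPM in the LOF-labelled libraries, a log2 fold change of 0.24 (SE 0.11, edgeR adjusted p = 0.805). Control 1_2 lay well below the other 3 controls, which themselves were below the LOF-labelled libraries.

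Summed levels of some markers of other cell types also stood apart between the groups. The 18 cartilage and neural crest markers summed to 28132 to 33217 CPM among controls against 18511 to 26178 CPM among LOF-labelled libraries. Of the 17 tested, 3 were called by edgeR, where 0.09% of all genes tested were. Of the 18, 17 were above 1 CPM in all libraries, and the cartilage gene snorc was at 0. The most abundant was the collagen gene col2a1a, at a mean of 5411 CPM. Not every marker was lower, since 13 of the 17 tested had a log2 fold change below 0 and 4 above it. For twist1a the groups overlapped, at 196 to 266 CPM among controls against 190 to 298 CPM among LOF-labelled libraries. The 14 neuronal markers summed to 352 to 480 CPM among controls against 314 to 339 CPM among LOF-labelled libraries, with 13 above 1 CPM in all libraries and none at 0 throughout. All 13 tested neuronal markers had a log2 fold change below 0. For elavl3 the groups still overlapped, at 36.2 to 68.8 CPM among controls against 34.1 to 49.6 CPM among LOF-labelled libraries. In the sums of both lists the groups did not overlap, as for sema5bb, sema3h and plxnb1a, while the sums of the other 10 marker lists overlapped. Among those 10, all 9 tested photoreceptor and lens markers had a log2 fold change below 0 (median -1.65). Their sums were 86.3 to 806 CPM among controls, highest in control 1_1 and 1_2, against 113 to 248 CPM among LOF-labelled libraries. The direction of the sum did not hold in control 2_1 and 2_2, at 91.7 and 86.3 CPM. LOF-labelled 1_1 and 1_2, of the same library set, were higher, at 113 and 127 CPM. The part of these marker lists in the values of sema5bb, sema3h and plxnb1a was not tested. In sorted bulk samples, fewer cells of a type and less RNA per cell cannot be told apart.

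The library sets separated more members than the morpholino groups did. The 2 sets did not overlap in 19 of the 73 members, or 26%, near the 27.3% of all genes tested. In 16 members the second set was higher (21.9%, beside 13.1% of all genes tested) and in 3 it was lower (4.11%, beside 14.2%). The higher ones were sema3d, sema4c, sema5a, sema6dl, sema4bb, sema7a, plxna4, plxnb3, efna2a, efna5a, efna3b, ephb4b, epha4a, epha3, robo1 and slit1b, and the lower ones plxnc1, plxnb1b and sema4ab. The sets were taken from these libraries' own first principal component, so the split is a description and was not tested. Endothelial markers summed to 972 to 1009 CPM in the first set and 1250 to 1375 CPM in the second, and the 7 mural cell markers to 823 to 977 and 1184 to 1350 CPM. In the other direction, erythrocyte markers, with hbba1 and alas2 at 0, summed to 909 to 1259 CPM in the first set against 329 to 367 CPM in the second. Photoreceptor and lens markers, with cryaa at 0, summed to 245 to 806 against 86.3 to 127 CPM, and macrophage markers to 8.49 to 24.9 against 2.81 to 5.94 CPM. The most abundant photoreceptor marker was rho, at a mean of 173 CPM, and not every gene of that list followed the sum. In the first set, opn1sw1 was at 112 and 106 CPM in the controls but at 1.86 and 0.538 CPM in the LOF-labelled libraries. It was at 6.77 to 30.1 CPM in the second set. Unlike the endothelial sum, fli1b of that list was at 91.2 to 121 CPM in the first set against 64.2 to 83.3 CPM in the second. Of the mural list, myh11a overlapped between the sets, at 162 to 231 CPM in the first against 185 to 229 CPM in the second. The part of these marker lists in the members' values was not tested.

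**Figure D5:**
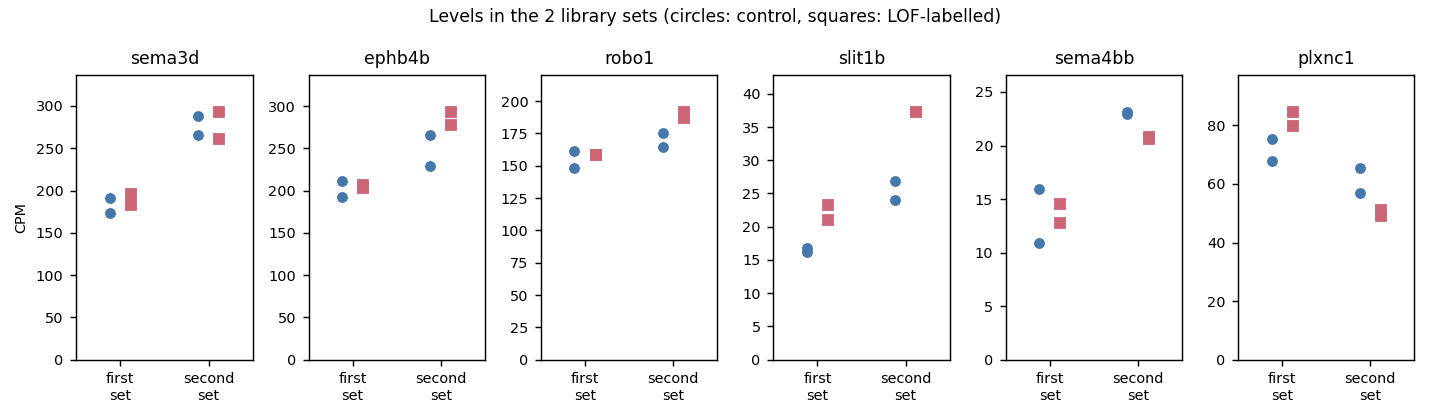
CPM of 6 members in the first library set (control 1_1 and 1_2, LOF-labelled 2_1 and 2_2) and the second (the other 4), with control libraries as circles and LOF-labelled libraries as squares. In sema3d, ephb4b, robo1, slit1b and sema4bb the second set lies above the first, and in plxnc1 below it.

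Among the members with the widest spread over the libraries, slit1b was at 16.3, 16.8, 24.1 and 26.9 CPM among controls against 37.3, 37.2, 20.9 and 23.3 CPM among LOF-labelled libraries. The LOF-labelled libraries were higher than the controls within each set, by 0.41 and 0.55 on the log2 scale, although the groups as a whole overlapped (log2 fold change 0.49, SE 0.23, edgeR adjusted p = 0.810). The level of sema4bb was 15.9, 10.9, 22.9 and 23.2 CPM among controls against 20.6, 20.8, 14.6 and 12.8 CPM among LOF-labelled libraries, low in the first set and high in the second. The class 4 semaphorin sema4e was at 11.4, 8.19, 5.76 and 4.82 CPM among controls against 11.3, 5.51, 11.7 and 11.2 CPM among LOF-labelled libraries, with neither groups nor sets apart. Its span overlaps stap2a on the same strand. Plexin C1 (plxnc1), which in mammals binds semaphorin 7A, was not among the members of widest spread but was lower in the second set. It was at 67.8, 75.2, 57.0 and 65.6 CPM among controls against 49.2, 51.3, 84.7 and 79.7 CPM among LOF-labelled libraries. In that gene the LOF-labelled libraries were higher in the first set (0.201) and lower in the second (-0.283).

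With the library sets as a crossed replicate block, an alternative chosen after the data were seen, 4 of the 73 members were called, sema5bb, plxnb1a and sema3h lower and slit1b higher, where 2.55% of all genes tested were called. Since each set holds 1 biological replicate of each group, that fit measures spread mainly among libraries of the same biological replicate.

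The other genes of guidance signalling comprised 74 names of co-receptors, netrins and their receptors, adhesion partners and downstream effectors, of which 72 matched 76 rows and 66 were tested. None was called by edgeR (0 of 66), where 0.09% of all genes tested were, and 3 lower and 2 higher (7.58%) had an unadjusted p under 0.05, beside 6.29% of all genes tested. DESeq2 also called 0 of them. Among the most abundant were the class 3 semaphorin co-receptor nrp2b, at 380 CPM, and the netrin receptor neogenin (neo1a) at 360.5 CPM, as means over the 8 libraries. In both genes the groups overlapped. The smallest p belonged to ntn2, a netrin ligand, at 13.6 ± 0.0258 CPM among controls against 19.4 ± 3.91 CPM among LOF-labelled libraries (mean ± SD, n = 4). The SD of the controls is below the counting error at this level, so it does not measure their precision. The log2 fold change of ntn2 was 0.51 (SE 0.16, edgeR adjusted p = 0.543), and the within-set differences were 0.23 and 0.72. Next were flrt1b, a membrane protein of the family that binds unc5 receptors, at -0.92 (SE 0.31, edgeR adjusted p = 0.588), and dpysl5b, of the collapsin response mediators that act downstream of semaphorins, at -0.59 (SE 0.22, edgeR adjusted p = 0.686). Of the 66 tested, the groups did not overlap in 2 lower genes, flrt1b and dpysl3, and in 2 higher ones, ntn2 and srgap3. Of all genes tested, 4.65% did not overlap. In dpysl5b the groups overlapped, and its difference was -1.08 within the first set against -0.087 within the second.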

How the data were processed

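The authors deposited raw read counts per gene for 8 libraries, with gene names, identifiers, coordinates and a counted gene length. Coordinates are on GRCz11, per the submitters' processing notes. Neither aligner nor counter nor strand setting is given in the sources used here. Every column was matched to a sample through its description, and 0 were left over.

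Counts were tested by quasi-likelihood in edgeR 4.0.16 (R 4.3.3; filterByExpr, TMM scaling, robust dispersions, no replicate block), with Benjamini-Hochberg adjustment over the 15559 genes tested. Calls needed an adjusted p under 0.05. CPM are counts over the TMM-scaled library size, brought to a common total, and per kilobase means per counted gene length of the authors' table. Differences within library sets use log2 CPM with a prior count of 2. Each SE came from the fold change divided by the root of its F statistic. The edgeR step was tested on simulated data, with counts drawn independently for each library. The simulation held neither biological replicates nor library sets, so it cannot show whether p-values are too small for that reason. Alternatives were RLE scaling, no low-count filter, DESeq2 1.42.0, a replicate block, summed counts of each biological replicate, a random effect of biological replicate (limma 3.58.1) and leaving out each library. A crossed block and values within library sets were added after the data were seen.

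The members, gene lists and tests were chosen with earlier results of these data known. Single genes were named by rule: called members, the highest per kilobase in each family, those whose groups did not overlap, the 4 of smallest p and the 4 of widest spread. Of the other guidance genes, those of smallest p and highest CPM were named, and 1 of them is not reported here. Other genes named were chosen after their values were seen. Libraries of the same biological replicate differed by a chi-square of 2.53 to 5.77 per gene, and those of different biological replicates of 1 group by 13.7 to 24.4, so no library was a copy of another. Reads of near-identical paralogs and of overlapping genes may be misassigned.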

Additional observations from a re-analysis of the deposited data

Results flagged for a closer look

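In 2 of 62 groups of 4 libraries examined, 1 library lay far from the other 3, where chance gives about 1 in 20 groups. For epha7 the control library 1_2 was at 25.2 CPM, below the range of 31.4 to 32.6 CPM of the 3 remaining ones. Without it the log2 fold change of epha7 was 0.16 instead of 0.24. For sema4e the LOF-labelled library 1_2 was at 5.51 CPM, below the range of 11.2 to 11.7 CPM of its group.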

How the results depend on the processing

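No member was called by edgeR under RLE scaling, without the low-count filter, with the replicate block, with counts summed per biological replicate or with any 1 library left out, nor by limma with biological replicate as a random effect. DESeq2 called 1 member, where it called 0.617% of all genes tested. The crossed replicate block called 4 members and 1 of the 66 other guidance genes tested, ntn2, where it called 2.55% of all genes. Members at an unadjusted p under 0.05 numbered 2 with counts summed per biological replicate (2.6%, beside 1.71% of all genes tested), 3 with the random effect (4.11%, beside 2.2%) and 14 with the crossed block (19.2%, beside 15.9%), against 6. The biological replicate numbers did not pair the groups: deviations of same-numbered replicates correlated at -0.487 over all genes tested, and the replicate block gave 6 members at an unadjusted p under 0.05. The log2 fold change of plxnd1 changed sign with the replicate block (-0.0079) and the crossed block (-0.013), and ran from -0.12 to 0.18 when 1 library was left out. That of sema4bb ran from -0.26 to 0.035 in the same way. The cause was not tested. Summed over the 8 libraries, the fewest counts among the tested members were those of epha6 (101) and efna2b (130), which limits the precision of their values.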
